A study of Mus musculus with 4 samples.

Results

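The genes described here are 9 genes of pericellular proteolysis in mouse embryonic fibroblasts, namely the plasminogen activators Plau and Plat, the receptor Plaur, the protease inhibitor Serpine2, the matrix metalloproteinases Mmp2, Mmp3 and Mmp14, and the metalloproteinase inhibitors Timp1 and Timp3. They were picked by gene symbol, with earlier results of these data known, and all 9 were found among the 27597 genes listed in the deposited tables. RNA had been sequenced from skin fibroblasts of OGXICR mouse embryos at stage D13.5, freed of epidermis and grown in medium with serum. All groups carried a lentivirus of the same doxycycline-inducible system. The OSKM group received OCT4, SOX2, KLF4 and c-MYC, the factors commonly used to reprogram somatic cells to pluripotency. The G3SKM group received GATA3, a lineage-specifying transcription factor, with SOX2, KLF4 and c-MYC. The SKM group received SOX2, KLF4 and c-MYC without a further factor, and the last group received an empty vector. The labels used here give no time after induction. The series asks which further factors can work in reprogramming beside the standard set, and the comparisons with SKM bear on OCT4 and GATA3. Each group had 1 value per gene standing for 2 replicates, which leaves the variation between replicates unknown for every difference below, and no test was made.

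The plasminogen system is a chain of extracellular proteases. The activators urokinase (Plau) and tissue-type activator (Plat) cut plasminogen into plasmin, urokinase does so bound to its surface receptor (Plaur), and inhibitors of the serpin family block the activators. Plasmin and some metalloproteinases in turn activate other pro-metalloproteinases, the TIMP proteins inhibit these enzymes, and fibroblasts use the whole set to remodel the matrix around them.

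Values are RPKM, that is reads per kilobase with depth taken into account. RPKM multiplied by the whole gene span, introns included, fell on whole reads for most genes, so the deposited values divide by that span and genes with long introns have low RPKM. Levels of different genes are therefore compared as exon-length RPKM, the same reads divided by the summed exon length. Reads in introns count on this scale too, so it can overstate genes with long introns. The span is 14 times the exon length for the inhibitor gene Timp2, against 2.31 times for Mmp14. Calls of higher or lower follow a rule of size, a log2 ratio of RPKM + 1 of 1 or beyond in either direction, and they need 1 RPKM in one or both of the groups. Folds are ratios of the RPKM without the added 1, and bounds in brackets are 95% intervals that cover counting error only. Mmp3 passed this filter in no comparison.

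The recovered depth was 74.7 M reads (mega-reads) in OSKM, 102 M in G3SKM, 54.0 M in SKM and 111 M in empty vector. The SKM library stood apart by base composition. Across 9455 genes its log2 ratio to empty vector followed transcript GC with a Spearman rho of 0.496, against 0.06 for OSKM over empty vector across 9478 genes. For OSKM over SKM rho was -0.71, and for G3SKM over SKM it was -0.72. Genes are not independent replicates. The members' log2 ratios to empty vector in SKM are given below with that trend removed as well. For other genes of the pathway lists such values are given where the call of a named gene changes, and for some further genes. The median log2 ratio of all genes to empty vector was 0.18 in OSKM, 0.17 in G3SKM and 0.15 in SKM. Centring on it changed the split of all calls to 294 genes higher and 612 lower in OSKM, against 492 and 425 as deposited. The centred split was 469 and 572 in G3SKM, against 732 and 386 as deposited, and 608 and 843 in SKM, against 905 and 610. The fibroblast label was checked on 10 marker genes, whose summed RPKM was 376.6 in OSKM, 369 in G3SKM, 642.9 in SKM and 863.8 in empty vector, with none at 0. Of these, 6 of 10 were called lower than in empty vector in OSKM, 5 of the 8 that passed the filter in G3SKM and 1 of 8 in SKM. Among all genes, 4.16% were called lower in OSKM, 3.75% in G3SKM and 5.98% in SKM. Per exon length 8 of 10 were called lower and 2 (Dcn and Lum) higher in OSKM, 7 lower and 0 higher in G3SKM, and 2 lower and 0 higher in SKM. With the GC trend removed on that scale, SKM had 3 lower and 1 (Dcn) higher. On that setting 5.64% of all genes were lower and 8.27% higher in SKM. Of all genes compared per exon length, 4.92% were lower and 8.92% higher in OSKM. The shares were 4.87% and 10.2% in G3SKM, and 7.15% and 11.9% in SKM.

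Of the 9 members, 8 passed the filter against empty vector in each factor group, and none was called higher in any of them. In OSKM, 5 were called lower (Plau, Plaur, Mmp14, Timp1 and Timp3), where 4.16% of the 10212 genes compared were called lower and 4.82% higher. In G3SKM, 4 were called lower (Plau, Plaur, Mmp14 and Timp3), against 3.75% of 10298 genes called lower and 7.11% higher. In SKM, 3 were called lower (Plau, Plaur and Timp3), against 5.98% of 10195 genes called lower and 8.88% higher. The median log2 ratio of the 8 was -1.19 in OSKM, -1.12 in G3SKM and -0.83 in SKM, beside the medians of all genes given above. Centred on those medians, 6 were called lower in OSKM, 5 in G3SKM and 4 in SKM. The shares of all genes called lower were then 5.99%, 5.55% and 8.27%. With the GC trend removed SKM again had 3, in which Mmp14 took the place of Timp3, against 4.25% of all genes. A gene can pass the filter through empty vector alone, and the 3 comparisons share the same empty vector value. In bulk RNA, fewer cells of a type and less RNA per cell cannot be told apart.

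**Figure D1:**
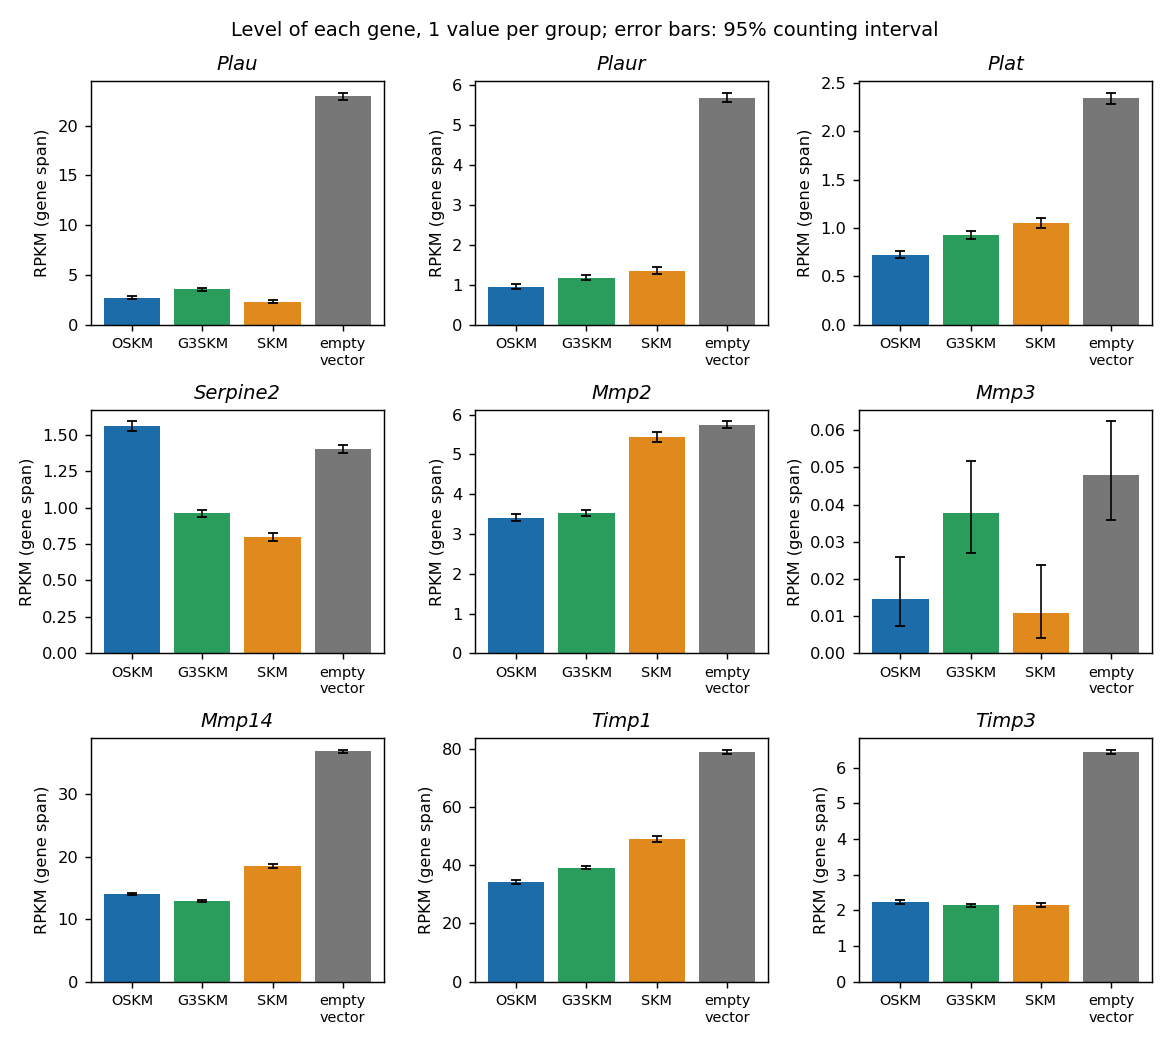
RPKM per gene span of the 9 members (linear axes from 0, 1 panel per gene) in OSKM, G3SKM, SKM and empty vector, 1 bar per group, with error bars as 95% Poisson intervals that cover counting error only. Plau shows a wide gap, at 2.73 RPKM in OSKM, 3.56 in G3SKM and 2.30 in SKM against 22.96 in empty vector, and Mmp3 lies under 0.05 RPKM in all 4 groups.

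For 6 members (Plaur, Serpine2, Mmp3, Mmp14, Timp1 and Timp3) a 300-base RefSeq promoter window was at hand. None was at hand for Plau, Plat and Mmp2. Each window ran from 250 bases before to 50 after the gene start. Each was searched on both strands for the motif of the AP-1 factors, TGANTCA, and for that of the TEAD factors, GGAATG. The windows of Plaur and Mmp3 held 1 AP-1 match each and that of Timp1 held 1 TEAD match, with no overlap of motifs. Of all 32851 mouse windows, 2565 (7.81%) held TGANTCA and 4817 (14.7%) held GGAATG. A match describes the letters in the window and is not a site of binding. The sequences with a match are shown with the matched bases in capitals, 5′ to 3′ on the plus strand of GRCm38.p6, because Plaur and Timp1 are among the members called lower in OSKM while Mmp3 is nearly silent. The Plaur window lies at chr7:24462233-24462532, the Mmp3 window at chr9:7445572-7445871 and the Timp1 window at chrX:20869916-20870215.
Plaur: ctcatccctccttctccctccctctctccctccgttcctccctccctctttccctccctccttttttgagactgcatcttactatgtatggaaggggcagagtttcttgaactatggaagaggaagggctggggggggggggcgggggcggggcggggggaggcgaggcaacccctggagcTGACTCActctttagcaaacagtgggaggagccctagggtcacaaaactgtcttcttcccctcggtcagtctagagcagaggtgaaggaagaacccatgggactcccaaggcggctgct
Mmp3: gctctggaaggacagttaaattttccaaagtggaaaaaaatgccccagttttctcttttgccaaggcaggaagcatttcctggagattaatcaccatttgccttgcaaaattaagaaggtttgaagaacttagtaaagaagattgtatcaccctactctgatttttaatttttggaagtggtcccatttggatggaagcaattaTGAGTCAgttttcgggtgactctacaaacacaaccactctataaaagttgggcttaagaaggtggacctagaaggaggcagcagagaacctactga
Timp1: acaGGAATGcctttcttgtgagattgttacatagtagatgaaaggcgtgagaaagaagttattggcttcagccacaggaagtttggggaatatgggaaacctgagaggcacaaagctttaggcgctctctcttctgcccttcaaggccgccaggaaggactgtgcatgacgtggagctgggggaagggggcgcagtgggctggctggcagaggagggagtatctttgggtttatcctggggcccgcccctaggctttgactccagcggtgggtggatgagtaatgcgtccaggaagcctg
The capitals start 69 bases before the gene start in Plaur, 46 bases before it in Mmp3 and 247 bases before it in Timp1. Thus Plaur and Mmp3 share the AP-1 letters close to the start but differ widely in level. The Serpine2, Mmp14 and Timp3 windows hold neither motif. Window GC was 59.3% in Plaur, 77.7% in Serpine2, 40.0% in Mmp3, 56.0% in Mmp14, 55.0% in Timp1 and 67.0% in Timp3. CpG dinucleotides numbered 41 in Serpine2 and 24 in Timp3, against 1 in Mmp3, with 7 to 10 in the other windows.

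Plau (ENSMUSG00000021822, chromosome 14) encodes urokinase. It stood at 2.73 RPKM in OSKM, 3.56 in G3SKM, 2.30 in SKM and 22.96 in empty vector. All 3 factor groups were far under empty vector and close to one another. Plau was 8.41-fold lower in OSKM (7.95 to 8.89), 6.45-fold lower in G3SKM (6.18 to 6.73) and 9.97-fold lower in SKM (9.30 to 10.7) than in empty vector. The log2 ratios were -2.68, -2.39 and -2.86 in the same order of groups, and -2.71 in SKM with the GC trend removed. From the lowest ratio of all genes compared, Plau had rank 11 in OSKM, rank 16 in G3SKM and rank 5 in SKM. The neighbouring genes on the chromosome had smaller ratios. Vcl, which encodes the adhesion protein vinculin, was called lower with log2 ratios of -1.27 in OSKM, -1.37 in G3SKM and -1.24 in SKM, while Camk2g, a calmodulin-dependent kinase gene, had -0.39, -0.23 and -0.27.

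Plaur (ENSMUSG00000046223, chromosome 7) encodes the urokinase receptor. Its level was 0.946 RPKM in OSKM, 1.18 in G3SKM, 1.35 in SKM and 5.68 in empty vector. The receptor thus fell with its ligand in all 3 factor groups. It was 6.0-fold lower in OSKM (5.61 to 6.42), 4.82-fold lower in G3SKM (4.57 to 5.09) and 4.21-fold lower in SKM (3.94 to 4.50). The log2 ratio in SKM was -1.51 as deposited and -1.65 with the GC trend removed.

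Plat (ENSMUSG00000031538, chromosome 8), the gene of tissue-type plasminogen activator, was at 0.725 RPKM in OSKM, 0.929 in G3SKM, 1.05 in SKM and 2.35 in empty vector. Its log2 ratios to empty vector were -0.96, -0.79 and -0.70 in that order of factor groups, under the rule of size in each, and -0.38 in SKM with the GC trend removed. As exon-length RPKM, 2.92 in OSKM, 3.74 in G3SKM and 4.24 in SKM against 9.44 in empty vector, Plat passed the rule in OSKM and G3SKM. On that scale 6 members were called lower and 0 higher in OSKM, against 4.92% of all genes lower and 8.92% higher. The counts were again 6 and 0 in G3SKM, against 4.87% and 10.2%, and 3 and 0 in SKM, against 7.15% and 11.9%, or 4 and 0 against 5.64% and 8.27% with the GC trend removed. Plasminogen itself, Plg, was not listed in any table.

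The balance of the activators shifted between groups. Per exon length, Plau was 2.66 times Plat in OSKM, 2.71 times in G3SKM and 1.54 times in SKM, against 6.91 times in empty vector. Plau was 1.59 times Plaur in OSKM, 1.67 times in G3SKM and 0.940 times in SKM, against 2.23 times in empty vector. The summed exon-length RPKM of Plau, Plat and Plaur was 15.6 in OSKM, 19.9 in G3SKM, 17.7 in SKM and 103.9 in empty vector. Plau made up 49.9% of it in OSKM, 50.8% in G3SKM and 62.8% in empty vector, and in SKM Plaur was the highest of the 3 with 39.2%. That order in SKM turned once the GC trend was removed. Plau then stood at 6.998 exon-length RPKM in SKM, Plaur at 5.78 and Plat at 5.19, so that Plau was 1.21 times Plaur and 1.35 times Plat and made up 38.9% of a sum of 18.0.

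Serpine2 (ENSMUSG00000026249, chromosome 1) encodes protease nexin-1, a serpin that inhibits thrombin and urokinase. Its RPKM was 1.56 in OSKM, 0.961 in G3SKM, 0.797 in SKM and 1.40 in empty vector. Its log2 ratios to empty vector were 0.09 in OSKM (-0.09 when centred on the median of all genes), -0.29 in G3SKM and -0.42 in SKM, none past the rule. In SKM the ratio was -0.09 once the GC trend was removed. Serpine2 thus had the highest ratio of the members in OSKM, and as deposited was the one member whose RPKM was higher there than in empty vector.

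Mmp14 (ENSMUSG00000000957, chromosome 14) encodes MT1-MMP, a membrane-anchored collagenase that activates pro-MMP2. It stood at 14.1 RPKM in OSKM, 12.9 in G3SKM, 18.5 in SKM and 36.9 in empty vector. The fall was 2.62-fold in OSKM (2.58 to 2.67) and 2.85-fold in G3SKM (2.80 to 2.90). In SKM the RPKM was 1.99-fold lower (1.95 to 2.03), with a log2 ratio of -0.96 that missed the rule and of -1.22 that passed it once the GC trend was removed. The neighbouring genes Mrpl52 and Lrp10 had log2 ratios to empty vector between -0.42 and 0.18 in the 3 factor groups.

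Mmp2 (ENSMUSG00000031740, chromosome 8) encodes gelatinase A, the substrate that MT1-MMP activates. Its RPKM was 3.41 in OSKM, 3.53 in G3SKM, 5.44 in SKM and 5.75 in empty vector. SKM was thus near empty vector, while OSKM and G3SKM were below both. The log2 ratios to empty vector were -0.61 in OSKM, -0.58 in G3SKM and -0.07 in SKM, none past the rule, and -0.39 in SKM with the GC trend removed. Mmp2 has a transcript GC of 55.3%, the highest of the members.

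Mmp3 (ENSMUSG00000043613, chromosome 9) encodes stromelysin-1, which can activate other pro-MMPs. It stood at 0.0145 RPKM in OSKM, 0.0378 in G3SKM, 0.0109 in SKM and 0.0479 in empty vector. These values rest on 11, 39, 6 and 54 recovered reads in that order. Mmp3 was thus close to undetected in every group. G3SKM was 3.46-fold over SKM (1.45 to 10.0), an interval that covers counting error only. Mmp3 lies in a run of 10 neighbouring Mmp genes on chromosome 9, of which 9 were listed. None of the run reached 1 RPKM in any group, and the highest was Mmp13, a collagenase gene, at 0.689 in empty vector.

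Timp1 (ENSMUSG00000001131, chromosome X), a secreted inhibitor of most MMPs, was the most abundant member. Its exon-length RPKM was 175.7 in OSKM, 201.7 in G3SKM, 252.1 in SKM and 406 in empty vector. As deposited it stood at 34.2 RPKM in OSKM, 39.2 in G3SKM, 49.0 in SKM and 78.9 in empty vector. The 3 factor groups lay below empty vector, OSKM the lowest. Timp1 was 2.31-fold lower in OSKM (2.26 to 2.36), past the rule with a log2 ratio of -1.19. The ratio was -0.99 in G3SKM and -0.68 in SKM, and -1.04 and -0.82 with the GC trend removed, which brought G3SKM past the rule.

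Timp3 (ENSMUSG00000020044, chromosome 10) encodes a TIMP that stays bound to the matrix. It had 2.23 RPKM in OSKM, 2.14 in G3SKM, 2.14 in SKM and 6.44 in empty vector. The 3 factor groups were nearly equal. Timp3 was 2.89-fold lower in OSKM (2.82 to 2.96), 3.01-fold lower in G3SKM (2.94 to 3.07) and 3.01-fold lower in SKM (2.93 to 3.10). With the GC trend removed the log2 ratio in SKM was -0.97, short of the rule, against -1.24 as deposited. The related Timp2, which binds MT1-MMP in the activation of pro-MMP2, stood at 3.996 RPKM in OSKM, 3.86 in G3SKM, 4.41 in SKM and 8.04 in empty vector, with log2 ratios of -0.86, -0.90 and -0.74 in the factor groups, and -0.91 in SKM with the GC trend removed.

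Enzymes and inhibitors can be set against each other within a library. Per exon length Mmp14 was 0.579 times Timp2 in OSKM, 0.551 times in G3SKM and 0.691 times in SKM, against 0.755 times in empty vector. Mmp2 was 0.472 times Timp2 in OSKM, 0.505 times in G3SKM and 0.682 times in SKM, against 0.395 times in empty vector. Mmp14 was thus lower and Mmp2 higher relative to Timp2 in each factor group. In SKM the ratios were 0.69 for Mmp14 and 0.67 for Mmp2 with the GC trend removed. Mmp2, Mmp3 and Mmp14 summed to 59.0 exon-length RPKM in OSKM, 57.4 in G3SKM, 85.0 in SKM and 130 in empty vector. With the GC trend removed, Mmp2 and Mmp14 without Mmp3 summed to 66.6 in SKM. Timp1 and Timp3 summed to 189.2 in OSKM, 214.7 in G3SKM, 265 in SKM and 444.9 in empty vector, with 229.5 in SKM once the GC trend was removed. Timp1 made up 91.3% to 95.1% of this sum of Timp1 and Timp3 in all 4 groups. Timp2 is left out of that sum. With the GC trend removed it stood at 48.97 exon-length RPKM in SKM, against 14.9 for Timp3.

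**Figure D2:**
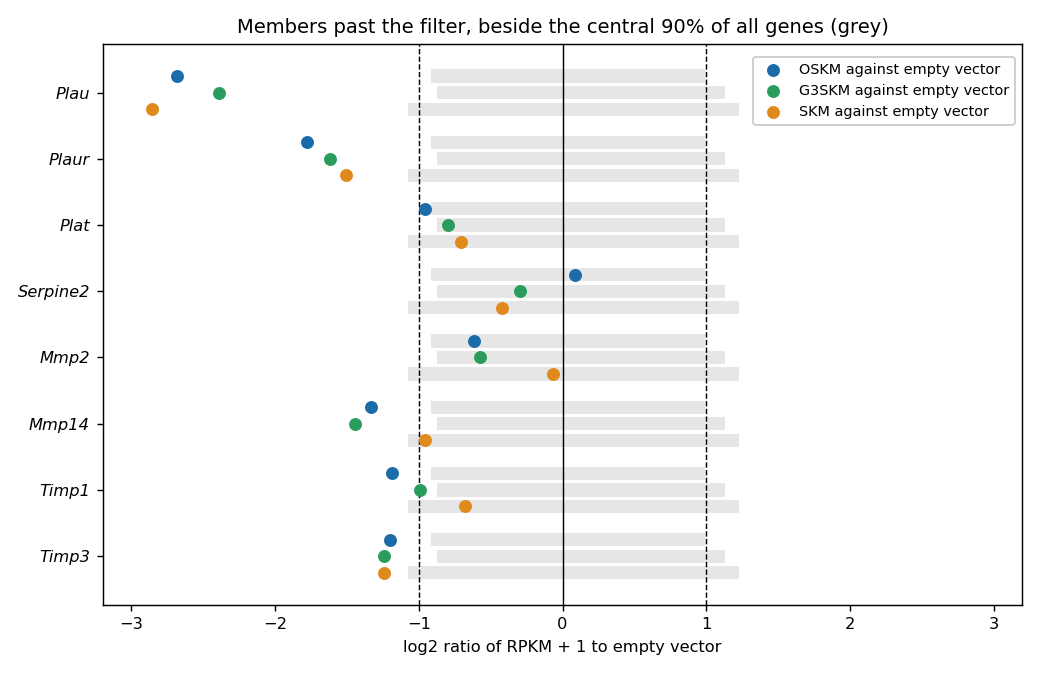
Log2 ratio of RPKM + 1 to empty vector for the 8 members past the filter in OSKM, G3SKM and SKM, 1 point per group, with grey bands from percentile 5 to 95 of all genes and dashed lines at the rule of size. Plau and Plaur lie past the rule in all 3 groups and Mmp14 in OSKM and G3SKM, while Serpine2 lies between -0.42 and 0.09.

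Timp1 and Timp3 each lie inside the span of a gene on the opposite strand, the synapsin genes Syn1 and Syn3. In OSKM, Timp1 held 11664 reads and Syn1 11957. The counts were 18191 and 18582 in G3SKM, 12098 and 12220 in SKM, and 40074 and 40771 in empty vector. The Timp1 span therefore held 97.5% to 99.0% of the reads counted for Syn1. Timp3 held 8185 reads and Syn3 8319 in OSKM, 10683 and 10898 in G3SKM, 5683 and 5762 in SKM, and 35161 and 35240 in empty vector. The Timp3 span thus held 98.0% to 99.8% of the Syn3 reads. Both strands were counted together, so reads from a TIMP gene and from its synapsin gene cannot be told apart, and a change listed for Syn1 or Syn3 would be almost wholly one of reads in the TIMP span. The other 7 members overlap no listed gene.

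**Figure D3:**
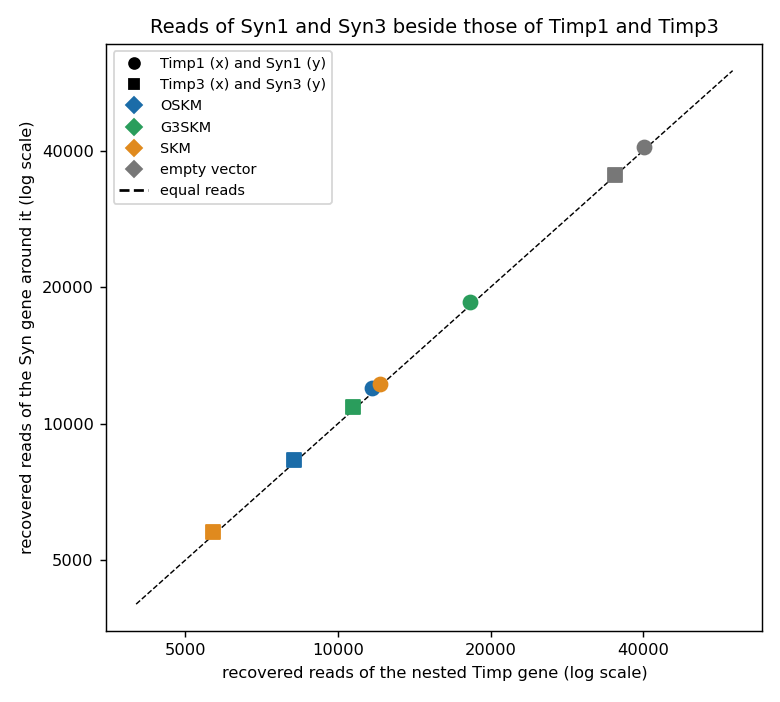
Recovered reads of Timp1 and Timp3 (x axis, log scale) against those of Syn1 and Syn3 around them (y axis, log scale), 1 point per gene pair and group, with the line of equal reads. All 8 points lie on or just above the line, from 5683 and 5762 reads for Timp3 and Syn3 in SKM to 40074 and 40771 for Timp1 and Syn1 in empty vector.

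No member was called between factor groups. In OSKM against SKM none of the 8 members past the filter was called, where 2.55% of 10211 genes were called higher and 1.64% lower. Serpine2 had a 1.95-fold higher RPKM in OSKM (1.87 to 2.04), with a log2 ratio of 0.51 that was 0.19 with the GC trend removed. Mmp2 had -0.55 and Timp1 -0.51, and these were -0.35 and -0.44 with the trend removed. Plat had -0.57 with the trend removed, the furthest from 0 of the 8 on that setting. Plau had 0.18 as deposited and -0.00 with the trend removed. In G3SKM against SKM none of 7 was called, where 4.43% of 10214 genes were called higher and 1.1% lower. Plau was 1.55-fold over SKM (1.43 to 1.68), with a log2 ratio of 0.47 as deposited and 0.29 with the trend removed. Mmp2 had -0.51 and Mmp14 -0.49, and these were -0.29 and -0.30 with the trend removed. In OSKM against G3SKM none of 7 was called, where 0.724% of 10222 genes were called higher and 2.25% lower. Serpine2 was 1.62-fold higher in OSKM (1.57 to 1.68), with a log2 ratio of 0.38. On the exon-length scale 0 of 8 members were called in each of these comparisons. There 3.99% of all genes were called higher and 1.95% lower in OSKM against SKM, 4.07% and 1.03% in G3SKM against SKM, and 1.51% and 1.91% in OSKM against G3SKM.

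The pathway was viewed through 86 genes in 9 lists, the members included, of which 83 were listed. Of the 77 genes that are no members, 74 were listed. In OSKM 30 of them passed the filter against empty vector, and 8 (26.7%) were called lower and 0 higher, with a median log2 ratio of -0.78. In G3SKM 31 passed, with 8 lower (25.8%), 0 higher and a median of -0.65. In SKM 29 passed, with 5 lower (17.2%), 0 higher and a median of -0.64. Of all genes, 4.16% were called lower in OSKM, 3.75% in G3SKM and 5.98% in SKM. The 5 in SKM remained 5 with the GC trend removed, though Itgav left and Htra1 joined, against 4.25% of all genes. Centred on the median of all genes, the counts of lower genes were 12 in OSKM, 13 in G3SKM and 8 in SKM, where 5.99%, 5.55% and 8.27% of all genes were lower. Adam8, Itgb1 and Prss23 were called lower in all 3 factor groups, also with the GC trend removed. Against SKM, 1 of 28 was called lower in OSKM, where 1.64% of all genes were, and 0 of 29 in G3SKM, and between OSKM and G3SKM 0 of 29 were called.

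Prss23, a secreted serine protease gene, stood at 19.4 RPKM in OSKM, 16.6 in G3SKM, 18.5 in SKM and 87.0 in empty vector. Itgb1, the integrin beta-1 chain that couples cells to matrix, was at 12.8 in OSKM, 9.85 in G3SKM, 6.63 in SKM and 30.4 in empty vector. Adam8, a membrane sheddase gene known from leukocytes, was at 0.178 in OSKM, 0.292 in G3SKM, 0.536 in SKM and 2.27 in empty vector. These 3 genes were lower in every factor group. Lrp1, the endocytic receptor that clears protease-inhibitor complexes, was called lower in OSKM (-1.04) and G3SKM (-1.14), with a log2 ratio of -0.42 in SKM. The SKM ratio of Lrp1 was -0.81 with the GC trend removed. Htra1, a secreted protease gene, was called lower in OSKM (-1.06) and G3SKM (-1.21), with -0.996 in SKM just short of the rule and -1.28 there once the GC trend was removed. Furin, the convertase that activates MT1-MMP, passed in G3SKM (-1.05), with -0.91 in OSKM and -0.26 in SKM, or -0.55 with the GC trend removed. Adamts1, a proteoglycan-cleaving protease, passed in G3SKM (-1.02), with -0.78 in OSKM and -0.72 in SKM. Itgav, the integrin alpha-v chain, passed in SKM (-1.05), with -0.80 in OSKM and -0.91 in G3SKM, but had -0.58 in SKM with the GC trend removed.

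Mmp23, a membrane MMP gene, differed among the factor groups. It stood at 6.36 RPKM in OSKM, 10.2 in G3SKM, 14.3 in SKM and 15.0 in empty vector. OSKM was lowest, and the gene was called lower there against both SKM and empty vector. With the GC trend removed the log2 ratio to SKM was -0.63, short of the rule. Adam19, a sheddase gene, had log2 ratios to empty vector of -1.07 in OSKM, past the rule, -0.89 in G3SKM and -0.79 in SKM. The SKM ratio of Adam19 was -0.95 with the GC trend removed. Of the other plasminogen and MMP genes named in the lists, Serpinb2, the gene of the activator inhibitor PAI-2, was at 0.0673 RPKM in OSKM, 0.0610 in G3SKM, 0.0346 in SKM and 0.111 in empty vector. Mmp9, gelatinase B, was at 0.151 in OSKM, 0.228 in G3SKM, 0.544 in SKM and 0.564 in empty vector. On the exon-length scale its log2 ratio passed the rule in OSKM (-1.05), and that of Timp2 passed in G3SKM (-1.05). With the GC trend removed on that scale Timp2 was called lower in all 3 factor groups, with -1.19 in SKM.

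**Figure D4:**
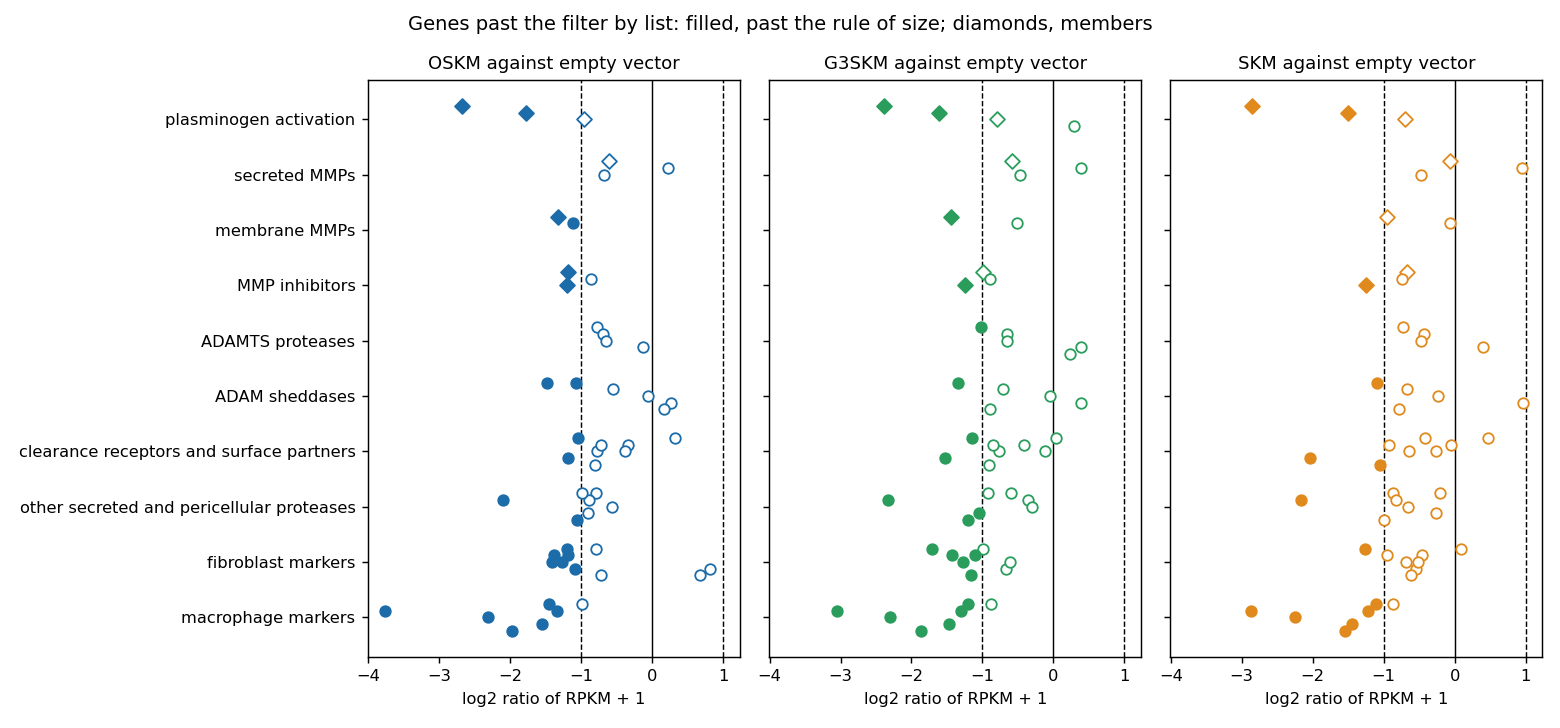
Log2 ratio of RPKM + 1 to empty vector for the genes past the filter in the pathway lists other than the serpins and in the fibroblast and macrophage marker lists, in panels for OSKM, G3SKM and SKM, with filled points past the rule of size (dashed) and diamonds for members. No point lies past the rule on the higher side, and Plau is the lowest of the pathway genes shown in OSKM at -2.68.

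Markers of other cell types moved with the groups too. The 10 macrophage markers summed to 1.98 RPKM in OSKM, 3.60 in G3SKM, 4.54 in SKM and 34.4 in empty vector, and none was at 0 in any group. In each factor group 6 of the 7 past the filter were called lower. SKM also had 6 with the GC trend removed, against 4.25% of all genes. Of all genes, 4.16% were called lower in OSKM, 3.75% in G3SKM and 5.98% in SKM. Between factor groups only 2 passed the filter, so most of the 7 passed through empty vector alone and could not be called higher. Lyz2, the lysozyme of myeloid cells, stood at 0.276 RPKM in OSKM, 1.10 in G3SKM, 1.37 in SKM and 16.4 in empty vector. Macrophages can also express Plau, Plaur and Adam8, and the part of these markers in the falls of those genes was not tested. Of 10 keratinocyte markers 9 were listed, and they summed to 18.6 in OSKM, 25.1 in G3SKM, 36.7 in SKM and 0.926 in empty vector, with Krt1 at 0 in empty vector. As deposited Krt14 alone passed the filter in OSKM and G3SKM, with log2 ratios of 4.04 and 4.48 to empty vector. In SKM Krt14 and Lor were called higher, and Lor had 0.62 with the GC trend removed. Per exon length 3 of 4 (Krt14, Cdh1 and Epcam) were called higher in OSKM and the same 3 of 5 in G3SKM. In SKM it was 4 of 5, or 2 with the GC trend removed. Of all genes per exon length, 8.92% were higher in OSKM, 10.2% in G3SKM and 11.9% in SKM, or 8.27% with the GC trend removed. The part of epithelial markers in the members' values was not tested. The 6 endothelial markers were each below 0.1 RPKM in all 4 groups. Per exon length they summed to 3.32 in OSKM, 0.976 in G3SKM, 0.726 in SKM and 0.390 in empty vector, and Tek, an endothelial receptor gene with a long span, was called higher in OSKM than in empty vector, with a log2 ratio of 1.86 on that scale. Among the 6 erythroid markers, Hba-a2, Hbb-bt and Hbb-bs were at 0 in empty vector, and the sums were 0.594 in OSKM, 0.598 in G3SKM, 0.442 in SKM and 0.0893 in empty vector. The 5 skeletal muscle markers summed to 2.72 in OSKM, 3.32 in G3SKM, 4.46 in SKM and 7.09 in empty vector, with Myog at 0 in SKM and Myf5 at 0 in empty vector.

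The genes with the most similar pattern over the 4 groups were searched among the 2797 protein-coding genes that reached 5 RPKM in some group, by the distance between centred log2 profiles. For Plau they were Hbegf (0.15), a growth factor gene at 1.00 RPKM in OSKM, 1.21 in G3SKM, 0.847 in SKM and 11.5 in empty vector, then Ankrd1 (0.28), Ccn4 (0.28), Fibin (0.39) and Plk2 (0.40). For Timp3 they were Fam84b (0.07), Wdr1 (0.10), Tax1bp3 (0.10), Vcl (0.11) and Pea15a (0.14). The profiles rest on 4 values per gene, and likeness is a description of these libraries.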

How the data were processed

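RNA-seq of mouse embryonic fibroblasts was taken from 3 deposited tables. Per the file headers, the authors' values are RPKM, and each table adds a log2 ratio of its RPKM columns, as deposited by the authors. TopHat 1.3.0 and the build mm9 are named in the submitters' processing notes. The counter, the annotation and the way of combining 2 replicates are not stated there and not given in the sources used here. Amplified cDNA went through further PCR before library preparation, per the labels' protocols, so reads are not independent molecules and all intervals (95%, Clopper-Pearson for folds and exact Poisson for levels) cover counting error only.

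The tables list 25509, 25856 and 26364 genes. A value of 0.001 was read as 0. Symbols, spans, exon lengths and transcript GC came from GENCODE M21, of a later build than mm9, which covered 91.0% of listed genes. Promoter sequences came from RefSeq, GRCm38.p6. RPKM times gene span fell within 0.05 of whole reads for 74.8% to 76.7% of genes with 1 to 1000 reads, which gave depth and reads on the assumption that the authors used these spans. Reads of other genes are approximate. The comparisons without SKM draw on separate tables, whose SKM columns were identical (largest difference 0).

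With 1 value per group no test was possible, and calls follow a rule of size (pseudocount 1 RPKM, filter 1 RPKM, log2 ratio 1). The rule was run on simulated Poisson reads that held no variation between replicates and no GC trend. That run thus cannot show how reliable the calls are here. The 9 members are named with all values. Named from the lists are genes past the rule in a comparison, plus Plg, Serpinb2, Timp2, Mmp9 and Mmp13, and the 5 genes most like Plau and Timp3. Some genes that this rule names are counted in the lists but not reported here. The neighbours Camk2g, Vcl, Mrpl52 and Lrp10 and the genes Syn1 and Syn3 are named for their position. Members and lists were chosen with earlier results of these data known. The alternatives tried were exon-length values, removal of the GC trend in 20 bins, both of these together, a minimum of 100 reads, a trimmed mean for scaling, centring on the median, a rule of 2, no filter or one at 5 RPKM, and pseudocounts of 0.1 or 5 RPKM. Python 3.11.15 was used with numpy 2.4.6, pandas 2.3.3, SciPy 1.17.1 and matplotlib 3.10.9.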

Additional observations from a re-analysis of the deposited data

How the results depend on the processing

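The number of members called lower against empty vector depended on the pseudocount and on the size of the rule. With a pseudocount of 5 RPKM it was 3 in OSKM, 2 in G3SKM and 1 in SKM, against 5, 4 and 3 as reported, where 1.61%, 1.51% and 2.16% of all genes were lower. With a rule of 2 it was 1 in OSKM, 1 in G3SKM and 1 in SKM, in each case Plau, where 0.597%, 0.427% and 0.471% of all genes were lower. Under the other settings it lay between 5 and 6 in OSKM, 4 and 6 in G3SKM and 3 and 4 in SKM. The share of all genes called lower shifted with these settings too. It ranged from 1.62% to 7.27% in OSKM, from 1.45% to 6.8% in G3SKM and from 2.39% to 10.8% in SKM. With a pseudocount of 0.1 RPKM the members called lower were 6, 6 and 4, where 7.03%, 6.58% and 10.8% of all genes were lower. No member was called between factor groups under any setting tried, and no called value changed sign. Of the single members' values under the alternatives, 285 stayed within their counting interval and 201 moved beyond it. The rule of 2, the changed filters and the read minimum cannot alter a log2 ratio, so their values stayed by construction. The 285 is thus no measure of stability, and the cause of the moves was not tested. The fall of Timp3 in SKM and the missed call of Mmp14 there changed with the GC trend. For all genes, the exon-length scale called 1324 higher and 731 lower in OSKM against empty vector, 1526 and 725 in G3SKM, and 1757 and 1056 in SKM. Depth limits Mmp3, with 6 to 54 reads. No paired analysis was possible because each group has 1 value.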

Other observations

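On the exon-length scale, where genes with long introns pass the filter, some pathway genes were higher in the factor groups than in empty vector. Among the 74 listed genes that are no members, 52 passed in OSKM with 3 higher and 16 lower, 52 in G3SKM with 2 higher and 16 lower, and 51 in SKM with 3 higher and 11 lower. With the GC trend removed SKM had 2 higher and 11 lower, where 8.27% of all genes were higher and 5.64% lower. Without that removal all genes had 8.92% higher and 4.92% lower in OSKM, 10.2% and 4.87% in G3SKM, and 11.9% and 7.15% in SKM.

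Mmp28, which encodes epilysin, an MMP of epidermis, stood at 0.840 RPKM in OSKM, 0.119 in G3SKM, 0.184 in SKM and 0.0609 in empty vector. It was 13.8-fold higher in OSKM than in empty vector (11.7 to 16.4), with an exon-length log2 ratio of 2.11, and 0.32 in G3SKM. Serpini1, which encodes the neuronal serpin neuroserpin, an inhibitor of tissue-type activator, stood at 0.252 RPKM in OSKM, 0.246 in G3SKM, 0.0736 in SKM and 0.0175 in empty vector. Its exon-length log2 ratio was 1.72 in OSKM, 1.70 in G3SKM and 0.63 in SKM. Against SKM, Mmp28 passed in OSKM (1.502) and so did Serpini1 in OSKM (1.09) and G3SKM (1.06). With the GC trend removed the ratios of OSKM to SKM were 2.04 for Mmp28 and 0.55 for Serpini1, and that of G3SKM to SKM was 0.44 for Serpini1. St14, the epithelial membrane protease matriptase, was higher in OSKM (1.10) and SKM (1.33) on that scale, with 0.97 in G3SKM. Adamts20, a protease gene of the ADAMTS family, passed in G3SKM (1.14), with 0.93 in SKM, or 1.02 and past the rule with the GC trend removed, and a value under the filter in OSKM. Mmp11, stromelysin-3, and Adam15, a sheddase gene, passed in SKM (1.20 and 1.02), but not with the GC trend removed (0.80 and 0.54).

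Mmp12, the macrophage elastase, stood at 0.0272 RPKM in OSKM, 0.0341 in G3SKM, 0.0508 in SKM and 0.651 in empty vector. Its exon-length log2 ratio was -1.57 in OSKM, -1.54 in G3SKM and -1.47 in SKM, where it was -0.93 with the GC trend removed. The macrophage markers given above were lower in the same groups, and their part in this was not tested. Mmp13 stood at 0.398 RPKM in OSKM, 0.0828 in G3SKM, 0.245 in SKM and 0.689 in empty vector, and its exon-length log2 ratio passed the rule in G3SKM (-1.504), with -0.54 in OSKM and -0.93 in SKM.

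Further genes were called lower on the exon-length scale. As deposited, Ctsk and Bmp1 were also called lower in OSKM once centred on the median of all genes. Adam12, a sheddase gene, had log2 ratios to empty vector of -1.88 in OSKM, -1.63 in G3SKM and -1.57 in SKM. Adamts12 had -1.09, -1.15 and -1.09 in the same order, and -0.89 in SKM with the GC trend removed. Mrc2, the endocytic collagen receptor, passed in OSKM (-1.02) and G3SKM (-1.004), with -0.33 in SKM, or -0.80 with the GC trend removed. Ctsk, cathepsin K, passed in OSKM (-1.21) and SKM (-1.11), with -0.45 in G3SKM. Bmp1, the procollagen C-proteinase, passed in OSKM (-1.28), with -0.75 in G3SKM and -0.25 in SKM, or -0.71 with the GC trend removed. In OSKM against SKM, Adamts3 was higher (1.23) and Adamts14 (-1.13), Mmp9 (-1.01) and Bmp1 (-1.03) were lower, and with the GC trend removed Adamts3 alone of these passed the rule.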
